A study of Mus musculus with 22 samples.

Results

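Chemokines are small secreted or membrane-bound proteins that guide migrating cells, and they act through G protein-coupled receptors. They are grouped by the spacing of the cysteines near their N terminus into CC, CXC and CX3C ligands. Their receptors are named after the ligands they bind. Atypical receptors bind chemokines without the usual G protein signal and clear or transport them. Leukocyte traffic is the best known use of the system, and in the embryo the pair of Cxcl12 and its receptor Cxcr4 also guides germ cells, neurons and blood progenitors. The genes described here were chosen by symbol: Ccl and Cxcl followed by a number, the Ccr, Cxcr and Ackr receptors, and the pair Cx3cl1 and Cx3cr1. The tables listed 54 such genes among 19721 genes in all. RefSeq names 59 protein-coding genes in this way, and the remaining 5, Ccl8, Ccl21b, Ccl21c, Ccl21d and Ccl26, were not analysed here.

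The study exposed developing embryoid bodies to tetrabromobisphenol A (TBBPA), a flame retardant that carries bromine, and measured RNA over time. The cells were J1, an embryonic stem (ES) cell line of the mouse, and embryoid bodies are its aggregates, in which the germ layers begin to form. The titles give the day after a D (D4, D9, D12, D18 and D28), and at each there was 1 library with 10 nM TBBPA, 1 with 100 nM TBBPA and 2 with the vehicle alone, 0.1% dimethyl sulfoxide (DMSO), and 2 untreated ES libraries preceded them, 22 in all. All come from 1 cell line, no other allele or agent is named, and the labels do not tell whether the TBBPA cultures also held DMSO. Nor do they tell whether replicate libraries are from different cultures. The p-values thus measure the spread among these libraries alone, and this may be technical.

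Total estimated counts were 18158583 to 18998141 per library. The source label calls every sample an embryoid body and the cell type label calls every one mESC, while the titles name 2 of them ES. The summed level of 10 ES cell markers was 9600 and 9220 CPM (a gene's count relative to the library size after TMM scaling) in these 2, against 3060 CPM or less in every other library. The 2 ES libraries differed from each other by a chi-square of 21.2 per gene, against 1.61 to 3.25 for the DMSO pairs. Embryoid bodies hold many cell types, and in such bulk RNA fewer cells of a type and less RNA per cell cannot be told apart. Changes were tested with edgeR's quasi-likelihood F test on counts, with Benjamini-Hochberg adjustment across every gene tested. A gene passed, and rose or fell, at an adjusted p under 0.05. Changes are on the log2 scale ± SE with 2 libraries a group unless stated otherwise, and levels that compare genes are FPKM, which are scaled to gene length.

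Of the 54 genes, 15 were listed in all 22 libraries and 29 had enough counts for a test. The other 25 had 1 to 94.36 counts over all libraries, and none of them reached a group mean above 0.59 FPKM. They comprise 7 CC receptors (Ccr2, Ccr3, Ccr4, Ccr6, Ccr8, Ccr9 and Ccr10), 4 CXC receptors (Cxcr1, Cxcr3, Cxcr5 and Cxcr6), the atypical receptor Ackr2 and 13 ligands (Ccl1, Ccl4, Ccl12, Ccl19, Ccl20, Ccl21a, Ccl22, Ccl24, Ccl27b, Cxcl2, Cxcl3, Cxcl9 and Cxcl13). Most of the leukocyte receptors of the family were therefore at or near the limit of detection at this depth. The family as a whole took 55.4 and 47.1 CPM (here of the unscaled total) in ES, and in DMSO libraries 135 and 129 at D4, 167 and 161 at D9, 186 and 192 at D12, 265 and 266 at D18 and 440 and 437 at D28. In TBBPA libraries (10 nM, then 100 nM) it took 131 and 128 at D4, 206 and 192 at D9, 222 and 212 at D12, 268 and 226 at D18 and 407 and 395 at D28. The number of genes with a mean of at least 1 FPKM was 5 in ES, 8 in DMSO at D4, 10 at each of D9, D12 and D18, and 18 at D28. A few genes carried most of this signal: Cxcl12 alone took 39.2% of the family's counts in DMSO at D4 and 29.8% at D28.

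**Figure D1:**
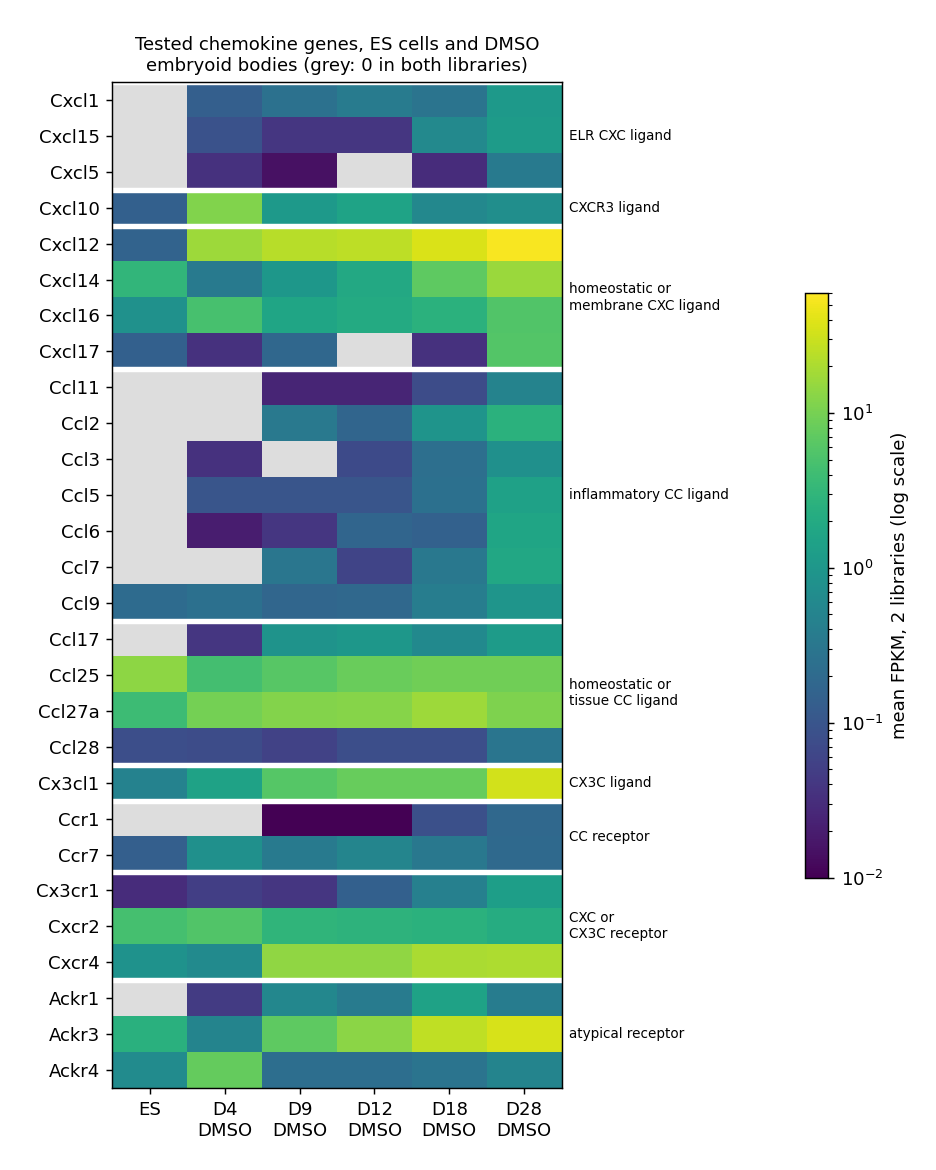
Mean FPKM (colour, log scale) of the tested genes, in rows grouped by role, in untreated ES cells and in DMSO embryoid bodies at D4 to D28, 2 libraries each; grey cells are 0 in both libraries. Cxcl12, at 55.0 FPKM, Cx3cl1, at 33.0 FPKM, and Ackr3, at 35.1 FPKM, are highest at D28, and the inflammatory CC ligands and the CC receptors stay below 3 FPKM at every stage.

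The 4 genes with the highest group means were Cxcl12 with 55.0 FPKM in DMSO at D28, Ackr3 with 35.4 FPKM in TBBPA at D28, Cx3cl1 with 33.0 FPKM in DMSO at D28 and Cxcr4 with 26.1 FPKM in TBBPA at D12. Their upstream sequences are shown because the results below turn on these genes. Each is the 250 bases before the gene's start, taken from the RefSeq promoter table of build GRCm38.p6, which has entries for 41 of the 54 genes. Capitals mark matches on either strand to 3 motifs. The GC box, which binds factors of the Sp family, was searched as GGGCGG. The TATA box, which places the start of transcription, was searched as TATAAA. The core of the xenobiotic response element, which the aryl hydrocarbon receptor binds, was searched as GCGTG. The windows are chr6:117168285-117168534 (plus strand) for Cxcl12, chr1:128592300-128592549 (minus strand) for Cxcr4, chr1:90203730-90203979 (plus strand) for Ackr3 and chr8:94771930-94772179 (plus strand) for Cx3cl1.
Cxcl12: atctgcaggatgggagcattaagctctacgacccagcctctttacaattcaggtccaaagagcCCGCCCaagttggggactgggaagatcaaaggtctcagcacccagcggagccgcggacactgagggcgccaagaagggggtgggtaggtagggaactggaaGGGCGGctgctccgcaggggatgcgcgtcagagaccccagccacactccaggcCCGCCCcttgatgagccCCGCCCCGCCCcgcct
Cxcr4: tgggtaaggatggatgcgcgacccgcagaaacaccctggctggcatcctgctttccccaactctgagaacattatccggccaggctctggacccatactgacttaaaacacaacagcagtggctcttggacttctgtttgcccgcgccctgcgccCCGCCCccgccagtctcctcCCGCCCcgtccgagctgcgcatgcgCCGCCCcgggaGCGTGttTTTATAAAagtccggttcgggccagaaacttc
Ackr3: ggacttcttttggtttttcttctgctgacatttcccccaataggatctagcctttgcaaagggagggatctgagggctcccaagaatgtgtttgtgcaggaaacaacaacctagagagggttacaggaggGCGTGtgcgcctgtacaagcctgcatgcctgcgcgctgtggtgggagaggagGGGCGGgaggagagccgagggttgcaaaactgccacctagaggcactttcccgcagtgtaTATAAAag
Cx3cl1: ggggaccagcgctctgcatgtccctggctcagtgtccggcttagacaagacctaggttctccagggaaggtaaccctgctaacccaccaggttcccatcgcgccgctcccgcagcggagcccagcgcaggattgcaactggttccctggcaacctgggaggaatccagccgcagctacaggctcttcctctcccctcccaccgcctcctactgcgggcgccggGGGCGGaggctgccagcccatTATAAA
G and C made up 64.4% of the Cxcl12 window, 61.2% of Cxcr4, 54.0% of Ackr3 and 64.8% of Cx3cl1. The Cxcl12 window held 5 GC boxes, of which the last 2 before the start overlap by 1 base, and no TATA box. The Cxcr4 window held 3 GC boxes, a GCGTG 39 bases before the start and, at 32 and 30 bases before it, 2 overlapping matches to TATAAA on opposite strands. The Ackr3 window held 1 GC box, 1 GCGTG and 1 TATAAA, and the Cx3cl1 window 1 GC box and 1 TATAAA. These TATAAA matches began 8 bases (Ackr3) and 6 bases (Cx3cl1) before the start, nearer to it than those of Cxcr4. Of all 32851 windows of this length in the table, 32.7% held the GC box, 12.4% TATAAA and 28.2% GCGTG. The hypoxia response core ACGTG (16.6% of windows), the nuclear receptor half-site AGGTCA (14.0%) and the NF-kB motif (1.41%) matched none of these 4 windows on either strand. These are matches of letters and not sites of binding.

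The first question is how the family was expressed as embryoid bodies developed without TBBPA. Of the 26 genes tested over these stages, all 26 passed in at least 1 step between successive stages. The share of all genes that did so was not counted. Single steps called 33.1% to 62.3% of all genes, so this is not a trait of the family. At D4 against ES, 9 of 26 rose (background 31.9% of all 16203 genes tested) and 3 fell (background 30.3%), 12 in all (background 62.3%). At D9 against D4, 9 rose (background 31.9%) and 5 fell (background 28.9%), 14 in all (background 60.8%). At D12 against D9, 3 rose (background 17.5%) and 0 fell (background 15.6%) in edgeR, 3 in all (background 33.1%), with 6 at an unadjusted p under 0.05. At D18 against D12, 9 rose (background 20.7%) and 1 fell (background 17.1%), 10 in all (background 37.7%), and DESeq2 called 6. At D28 against D18, 17 rose (background 24.9%) and 2 fell (background 28.1%), 19 in all (background 53%), and DESeq2 called 10. The median change at D28 against D18 was 1.06 for these genes and -0.03 for all genes tested. However, Ccl5, Ccl6, Ccl7, Ccl28, Cxcl1, Cxcl5 and Cxcl17 had enough counts for a test only through their D28 libraries. A rise at this step was thus largely fixed in advance for them. The count of rises and the median at D28 are therefore no measure of the family against all genes. For the 4 earlier steps the medians of the 26 fitted changes were 1.45, 0.23, 0.04 and 0.40. They were 0.74, 0.29, 0.09 and 0.37 with genes at 0 in 1 group set to their bound and without the 8, 4, 3 and 2 genes that were at or under a floor of 3 counts in both groups.

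Among the homeostatic CXC ligands, Cxcl12, which attracts progenitors that carry Cxcr4, was nearly absent in ES and high in every embryoid body. Its level was 0.858 and 0.0608 in ES, 58.7 and 56.2 at D4, 69.8 and 71.7 at D9, 67 and 68.4 at D12, 83.8 and 90.4 at D18 and 119 and 120 at D28, in CPM of the control libraries. Every embryoid body library lay above both ES libraries, and the 2 DMSO libraries of each stage were close together. It rose by 6.95 ± 0.24 (adjusted p = 7.14e-11) at D4 against ES, and by 6.05 to 9.73 over 10 alternatives of processing or left-out libraries. The SE draws on the spread of all 12 control libraries and does not measure that of the ES pair. Cxcl12 rose again by 0.45 ± 0.11 (adjusted p = 0.00388) at D28 against D18. Its smaller steps, 0.30 ± 0.11 (adjusted p = 0.0388) at D9 and 0.37 ± 0.11 (adjusted p = 0.0196) at D18, lost their call without any 1 of their 4 libraries, and the D28 step without D18 library 1 (adjusted p = 0.0563).

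Cxcr4, the signalling receptor of Cxcl12, came later than its ligand. Its level was 1.23 and 2.19 in ES, 1.69 and 0.902 at D4, 24.6 and 27.1 at D9, 23.4 and 24.7 at D12, 32 and 32.5 at D18 and 33.2 and 33.9 at D28 (CPM). The libraries of ES and D4 were all at 2.19 CPM or below, and those of D9 and later all above 23 CPM. It rose by 4.31 ± 0.20 (adjusted p = 2.6e-10) at D9 against D4 and by 0.43 ± 0.12 (adjusted p = 0.0136) at D18 against D12, a step that lost its call without any 1 of its 4 libraries. Ackr3, the atypical receptor that binds Cxcl12 and clears it, fell first and then climbed at every step. It stood at 5.89 and 5.84 in ES, 1.32 and 0.962 at D4, 15.3 and 13.1 at D9, 24.9 and 26.7 at D12, 49.7 and 49.4 at D18 and 67.3 and 64.3 at D28 (CPM), with no overlap between successive stages. It fell at D4 against ES by 2.35 ± 0.19 (adjusted p = 9.62e-08) and rose by 3.63 ± 0.16 (adjusted p = 2.25e-10) at D9, 0.87 ± 0.096 (adjusted p = 1.51e-05) at D12, 0.95 ± 0.087 (adjusted p = 1.29e-06) at D18 and 0.40 ± 0.082 (adjusted p = 0.000874) at D28.

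Cx3cl1 (fractalkine), the only CX3C ligand, is a membrane-bound adhesion molecule of neurons and of endothelial and epithelial cells that can be shed. Its level was 1.96 and 1.40 in ES, 4.70 and 5.83 at D4, 19.6 and 18.7 at D9, 22.9 and 25.8 at D12, 25 and 21.5 at D18 and 95 and 95.2 at D28 (CPM). The stages before D9 were low, D9 to D18 formed a plateau, and both D28 libraries stood far above it. It rose by 1.64 ± 0.21 (adjusted p = 9.55e-06) at D4, by 1.86 ± 0.13 (adjusted p = 3.48e-08) at D9 and by 2.03 ± 0.099 (adjusted p = 1.79e-09) at D28 against D18. The small step at D12, 0.36 ± 0.11 (adjusted p = 0.0197), lost its call without D9 library 1, D9 library 2 or D12 library 2. Its receptor Cx3cr1, found on macrophages and microglia, was low throughout and reached 4.10 and 4.82 CPM at D28, against 1.33 and 1.75 CPM at D18 (1.54 ± 0.33, adjusted p = 0.00126).

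**Figure D2:**
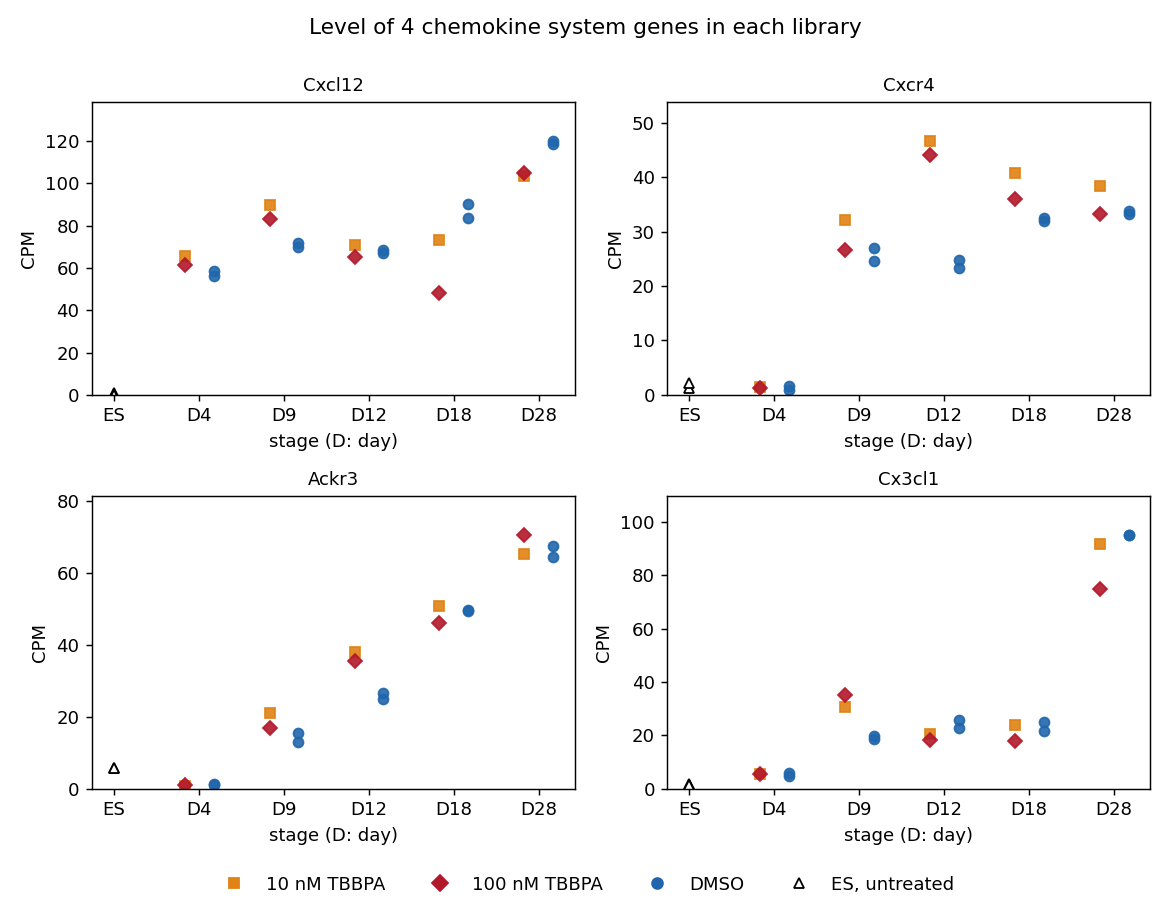
CPM of Cxcl12, Cxcr4, Ackr3 and Cx3cl1 in each of the 22 libraries by stage; within a day, 10 nM (square) and 100 nM (diamond) TBBPA stand left of the 2 DMSO libraries (circles), and untreated ES libraries are open triangles. At D12 both TBBPA libraries lie above both DMSO libraries for Cxcr4 (46.7 and 44.1 against 23.4 and 24.7 CPM) and Ackr3, and at D9 for Cx3cl1.

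A second set of genes peaked at D4. Cxcl10, an interferon-induced ligand of Cxcr3, a receptor of activated T cells, was 0.184 and 0.182 in ES, 15.3 and 13.3 at D4, 1.24 and 1.18 at D9, 1.83 and 1.48 at D12, 0.602 and 0.595 at D18 and 0.7 and 0.758 at D28 (CPM of control libraries). Both D4 libraries stood far above every other control library. It rose by 6.24 ± 0.27 (adjusted p = 8.89e-11) at D4, fell by 3.56 ± 0.19 (adjusted p = 1.17e-09) at D9 and fell again by 1.45 ± 0.27 (adjusted p = 0.000753) at D18. Of 12 tested genes of the interferon response, 8 rose (background 31.9%) and 3 fell (background 30.3%) at D4 against ES, so the list did not move as one. These counts were not tested against the shares. Among those that rose, Oasl2 changed by 6.52 (adjusted p = 4.19e-12), Irf1 by 2.73 (adjusted p = 4.25e-12) and Bst2 by 2.56 (adjusted p = 1.04e-08). The summed level of the whole interferon list was 578 and 604 CPM at D4, against 160 and 201 CPM in ES.

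Ackr4, an atypical receptor that removes Ccl19, Ccl21 and Ccl25, was 1.92 and 1.63 in ES, 18.8 and 18.4 at D4, 1.08 and 0.439 at D9, 0.516 and 0.61 at D12, 0.458 and 0.846 at D18 and 0.961 and 1.27 at D28 (CPM). Only the 2 D4 libraries exceeded 2 CPM among the controls. Its rise at D4 was 3.38 ± 0.24 (adjusted p = 1.84e-08), and it fell at D9 by 4.62 ± 0.27 (adjusted p = 3.17e-09). The gene overlaps Acad11, which did not pass at D4 (0.18, adjusted p = 0.0677) and fell at D9 (-0.33, adjusted p = 0.00302); counting by strand is not stated, so reads of overlapping genes may be shared. Cxcl16, a membrane-bound ligand of Cxcr6 and a scavenger receptor, was 1.96 and 1.70 in ES, 9.94 and 10.7 at D4, 2.91 and 3.22 at D9, 3.96 and 2.97 at D12, 4.61 and 3.87 at D18 and 8.60 and 8.04 at D28 (CPM). It was high at D4 and again at D28, with changes of 2.48 ± 0.19 (adjusted p = 5.36e-08) at D4, -1.75 ± 0.17 (adjusted p = 8.86e-07) at D9 and 0.97 ± 0.16 (adjusted p = 0.000213) at D28. Its overlapping neighbour Zmynd15 also rose at D4 (1.83, adjusted p = 0.000102) and fell at D9 (-2.22, adjusted p = 2.35e-05), but had no call at D28.

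Ccr7, the receptor that brings dendritic and T cells to lymph nodes, was 0.245 and 0.365 in ES, 1.45 and 1.93 at D4, 0.592 and 0.75 at D9, 0.967 and 0.972 at D12, 0.501 and 0.694 at D18 and 0.2 and 0.505 at D28 (CPM). It was low, highest in the D4 pair, and changed by 2.44 ± 0.44 (adjusted p = 0.000257) at D4 and -1.32 ± 0.37 (adjusted p = 0.00649) at D9. The second call was lost with DESeq2 (adjusted p = 0.082) and without D4 library 2 or D9 library 1. Cxcr2, the neutrophil receptor of ELR-type CXC ligands, was 21.9 and 10.6 in ES, 21.1 and 17.4 at D4, 11.1 and 7.26 at D9, 7.98 and 8.29 at D12, 8.34 and 6.50 at D18 and 5.96 and 6.17 at D28 (CPM). The 2 ES libraries differed widely, the D4 pair was high, and the gene fell at D9 against D4 by 1.08 ± 0.31 (adjusted p = 0.0116), a call lost without D4 library 1 or D9 library 2.

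Ccl25 was the abundant gene with its highest control level in ES. Ccl25, a ligand of Ccr9 known from thymus and gut, was 15.2 and 17.5 in ES, 5.30 and 5.96 at D4, 8.02 and 5.74 at D9, 8.50 and 9.21 at D12, 8.92 and 9.47 at D18 and 8.85 and 9.05 at D28 (CPM). Both ES libraries stood above all others, and it fell at D4 by 1.54 ± 0.16 (adjusted p = 1.11e-06). Cxcl14, an epithelial and mesenchymal chemokine, was 5.52 and 6.93 in ES, 0.662 and 0.722 at D4, 1.72 and 1.88 at D9, 3.46 and 3.07 at D12, 12.3 and 11.1 at D18 and 26 and 26.4 at D28 (CPM). It fell at D4 by 3.16 ± 0.22 (adjusted p = 1.91e-08) and then rose at every step, by 1.37 ± 0.27 (adjusted p = 0.000565) at D9, 0.87 ± 0.19 (adjusted p = 0.00347) at D12, 1.84 ± 0.15 (adjusted p = 3.68e-07) at D18 and 1.16 ± 0.12 (adjusted p = 2.8e-06) at D28. Ccl27a, a ligand of Ccr10 known from skin, was 2.76 and 2.79 in ES, 6.90 and 6.33 at D4, 7.79 and 7.07 at D9, 7.08 and 7.72 at D12, 9.13 and 10 at D18 and 6.50 and 5.56 at D28 (CPM). It rose at D4 by 1.25 ± 0.17 (adjusted p = 1.71e-05) and fell at D28 by 0.67 ± 0.14 (adjusted p = 0.0011). For Ccl27a a step of 0.38 ± 0.14 (adjusted p = 0.0426) at D18 lost its call with DESeq2 (adjusted p = 0.191) and without any 1 of its 4 libraries. Its overlapping neighbour Il11ra1 rose at all 5 steps, by 0.63 at D28.

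Most of the inflammatory genes had their highest control level at D28. The 5 inflammatory CC ligands tested at this step, Ccl2, Ccl5, Ccl6, Ccl7 and Ccl9, all rose in edgeR, where 24.9% of all genes rose. Of these, Ccl5, Ccl6 and Ccl7 had enough counts for a test only through their D28 libraries, so the 2 shares cannot be compared. DESeq2 called Ccl6 but not Ccl2 (adjusted p = 0.149), Ccl5 (0.239), Ccl7 (0.0752) or Ccl9 (0.077). Ccl2 and Ccl7 attract monocytes through Ccr2. Ccl2 was 1.75 and 1.97 CPM at D28, against 0.602 and 0.694 CPM at D18, 0.102 and 0.153 at D12 and 0.377 and 0.161 at D9, and had no count in ES or at D4. It rose by 1.51 ± 0.35 (adjusted p = 0.00339). At D9 it was at least 2.98-fold higher than at D4, where a floor of 3 counts over the pair stands in for 0. Its step at D18, 2.29 ± 0.59 (adjusted p = 0.00915), lost its call with DESeq2 (adjusted p = 0.0767) and without D12 library 1 or D18 library 2. Ccl7 was 1.25 and 1.72 CPM at D28, against 0.401 and 0.149 CPM at D18 (2.40 ± 0.52, adjusted p = 0.00207). Ccl6 and Ccl9 are myeloid ligands of Ccr1 found in rodents. Ccl6 was 1.95 and 2.38 CPM at D28, against 0.301 and 0.0992 CPM at D18 (3.39 ± 0.46, adjusted p = 4.02e-05). Its other control levels were 0 and 0 in ES, 0 and 0.0602 at D4, 0.0538 and 0.0536 at D9 and 0.204 and 0.256 at D12 CPM. Ccl9 was 2.42 and 2.69 CPM at D28, against 1.17 and 1.12 CPM at D18 (1.17 ± 0.29, adjusted p = 0.00384). In each of these 4 genes both D28 libraries lay above every other control library.

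Ccl5, a ligand that attracts T cells and monocytes, was 0.55 and 0.91 CPM at D28, against 0.251 and 0 CPM at D18 (2.48 ± 0.78, adjusted p = 0.0173). It rests on few counts and lost its call without D18 library 2 or D28 library 2. The neutrophil-attracting Cxcl1, Cxcl5 and Cxcl15 also passed, with levels of 1.15 and 0.758, 0.5 and 0.543 and 1.94 and 2.60 CPM at D28, against 0.15 and 0.347, 0.0501 and 0.0511 and 1.30 and 1.10 CPM at D18. Of these, Cxcl1 lost its call without D18 library 1 or D28 library 1, Cxcl5 without either D18 library and Cxcl15 without any 1 of the 4. DESeq2 called none of them at D28 (adjusted p = 0.118 for Cxcl1, 0.22 for Cxcl5 and 0.36 for Cxcl15). Cxcl15 had already risen at D18 against D12, where it was 0.162 and 0 CPM (3.86, adjusted p = 0.000484 in edgeR). This call held in 10 of 10 alternatives, though the D12 pair held few counts. At D4 Cxcl1 was at least 1.64-fold and Cxcl15 at least 2.33-fold higher than in ES, where both had no count, on 5 and 7.08 counts. The Cxcl1 call was lost with DESeq2 (adjusted p = 0.0711), without D4 library 2 (0.0974) and without ES library 1 (0.106) or 2 (0.108), and the Cxcl15 call without D4 library 1 (0.0748) or ES library 2 (0.0507). Cxcl17, a mucosal chemokine, was 3.50 and 4.25 CPM at D28 and 0.0501 and 0 CPM at D18 (adjusted p = 3.85e-06). Its other control levels were 0.123 and 0.122 CPM in ES, 0.0602 and 0 at D4, 0.269 and 0 at D9 and 0 in both libraries at D12. No fold is given, because the D18 pair held a single count.

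Ccl28, a mucosal ligand of Ccr10, was 1.41 and 0.635 CPM at D28, against 0.441 and 0.149 CPM at D18 (1.76 ± 0.54, adjusted p = 0.014). It lost its call with DESeq2 (adjusted p = 0.122) and without D18 library 2 or D28 library 1. Ccl17, a ligand of Ccr4, passed only at D9 against D4, with 0.323 and 0.643 CPM at D9, against 0 and 0.12 CPM at D4 (adjusted p = 0.0181). This call was lost with DESeq2 (0.0627), without D4 library 1 (0.126) and without D9 library 2 (0.132). Ackr1, the Duffy receptor of erythrocytes and venules, went the other way at the last step. It was 0 and 0 in ES, 0.12 and 0 at D4, 0.7 and 0.59 at D9, 0.56 and 0.256 at D12, 1.71 and 1.49 at D18 and 0.4 and 0.404 at D28 (CPM), with its highest pair at D18, and fell at D28 by 1.97 ± 0.43 (adjusted p = 0.00183). It overlaps Cadm3, a neural adhesion gene, which rose at D18 (2.23, adjusted p = 6.29e-09) and fell at D28 (-1.79, adjusted p = 2.21e-08) in the same libraries.

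Other gene groups moved in the same step, at which 24.9% of all genes rose and 28.1% fell. Whether listed genes had enough counts for a test only through their D28 libraries was not examined. The list counts below are therefore no measure against these shares. Of 16 tested macrophage markers, 14 rose at D28 against D18 and none fell, and their summed level was 141 and 137 CPM at D28, against 62.1 and 58.3 CPM at D18. The same sum was higher in ES, 189 and 205 CPM, of which Laptm5 alone gave 167 and 167 CPM, so the sum does not measure macrophages across all stages. The complement gene C1qa was 5 and 3.44 CPM at D28, against 0.551 and 0.496 CPM at D18, and Adgre1, which encodes F4/80, 2.90 and 3.64 CPM, against 0.852 and 0.347 CPM. Both were at 0 in ES and at D4. Of the 17 tested genes of NF-kB and cytokine signalling, 11 rose and none fell, among them Icam1 (1.01, adjusted p = 6.51e-06), Tlr4 (3.23, adjusted p = 1.04e-05) and Nfkbiz (0.95, adjusted p = 2.42e-05). Of 12 interferon response genes, 10 rose and none fell, among them Ifit3 (2.24, adjusted p = 3.22e-06). Neutrophil markers summed to 44 and 47.5 CPM at D28, against 1.51 and 1.11 CPM at D18, while the defining genes S100a8 and Mpo were at 0.15 CPM or less at D28. Of the other cell types, all 10 neuron markers fell, with sums of 158 and 150 CPM at D28, against 867 and 899 CPM at D18. Of 10 mesenchyme markers 8 rose and 1 fell, with sums of 14600 and 15200 CPM at D28, against 5740 and 6050 CPM at D18. Of 10 epithelium markers 7 rose and none fell, with sums of 2280 and 2340 CPM at D28, against 1470 and 1470 CPM at D18. The part of these cell type markers in the rise of the chemokine genes was not tested.

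**Figure D3:**
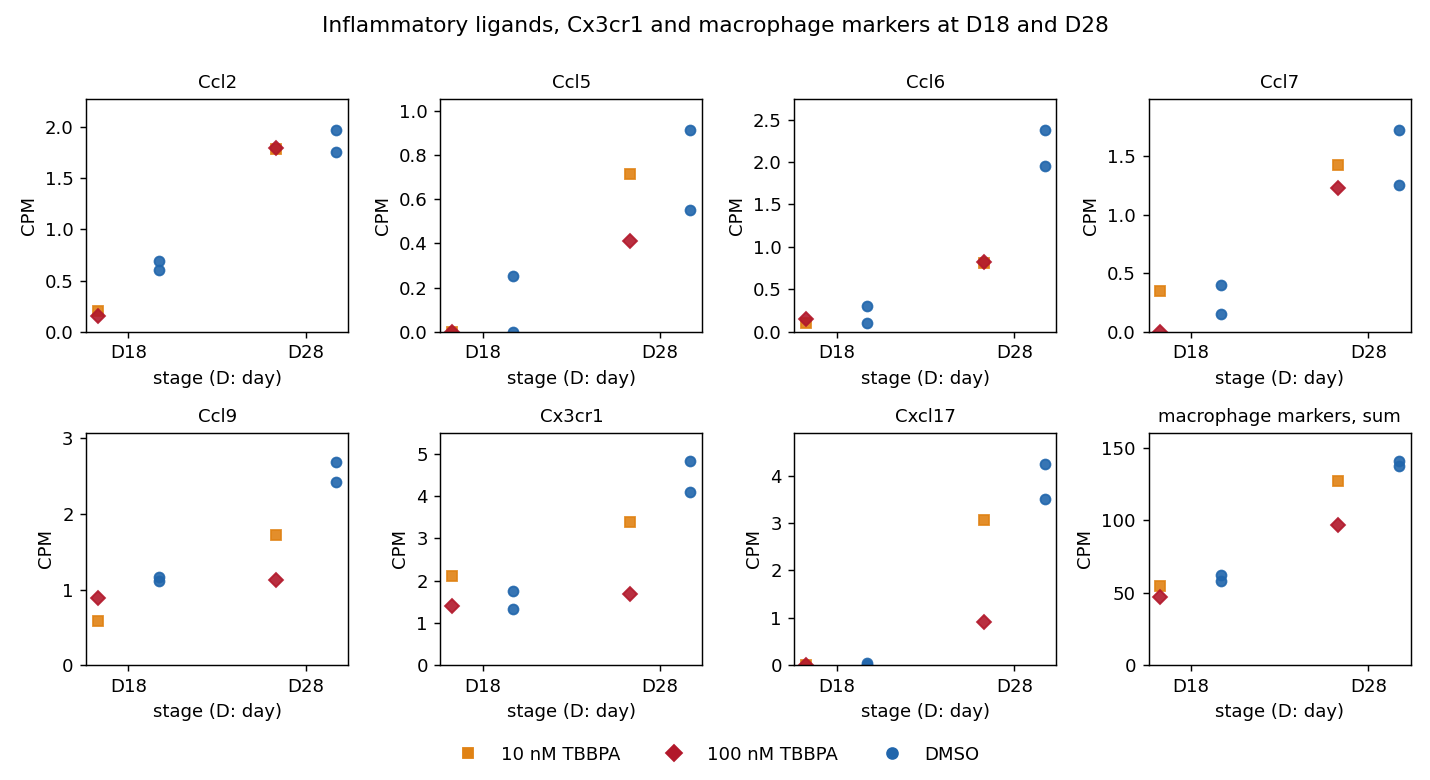
CPM of Ccl2, Ccl5, Ccl6, Ccl7, Ccl9, Cx3cr1 and Cxcl17, and the summed CPM of 17 macrophage markers, at D18 and D28, with 10 nM (square) and 100 nM (diamond) TBBPA left of the 2 DMSO libraries (circles). Ccl2, Ccl5, Ccl6, Ccl7, Cxcl17 and the macrophage sum are higher in every D28 library than in any D18 library. At D28 both TBBPA libraries lie below both DMSO libraries for Ccl6, Ccl9, Cx3cr1, Cxcl17 and the macrophage sum and overlap them for Ccl2, Ccl5 and Ccl7, and of the 7 genes Ccl6 alone passed at that day.

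The study's own question is what TBBPA changes. Taking the 10 nM and 100 nM library of a day as 2 samples against its DMSO pair, no gene of the family passed at D4 (0 of 29; background 0.458% of 16383 genes, 0.0855% rising and 0.372% falling). In edgeR 2 genes had an unadjusted p under 0.05 there, Ackr4 and Ccr7, and DESeq2 also called 0. At D9 2 rose (background 1.37%) and 0 fell (background 0.964%), 2 in all (background 2.34%). At D12 4 rose (background 11.9%) and 0 fell (background 9.19%), 4 in all (background 21.1%). At D18 2 rose (background 5.96%) and 2 fell (background 4.56%), 4 in all (background 10.5%). At D28 0 rose (background 3.65%) and 1 fell (background 3.44%), 1 in all (background 7.09%). Averaged over both doses and all days, 3 rose (background 11.7%) and 4 fell (background 10.3%), 7 of 29 in all (background 22%). The change differed between days for 3 genes (background 10.4%). The counts of the family were not tested against the background. With genes at 0 in 1 group set to their bound, and leaving out 10 genes at D4, 7 at D9, 8 at D12 and 2 at D18 that were at or under the floor of 3 counts in both groups, the median change of the family ranged from -0.19 at D28 to 0.005 at D12, and that of all genes from 0 to 0.03.

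**Figure D4:**
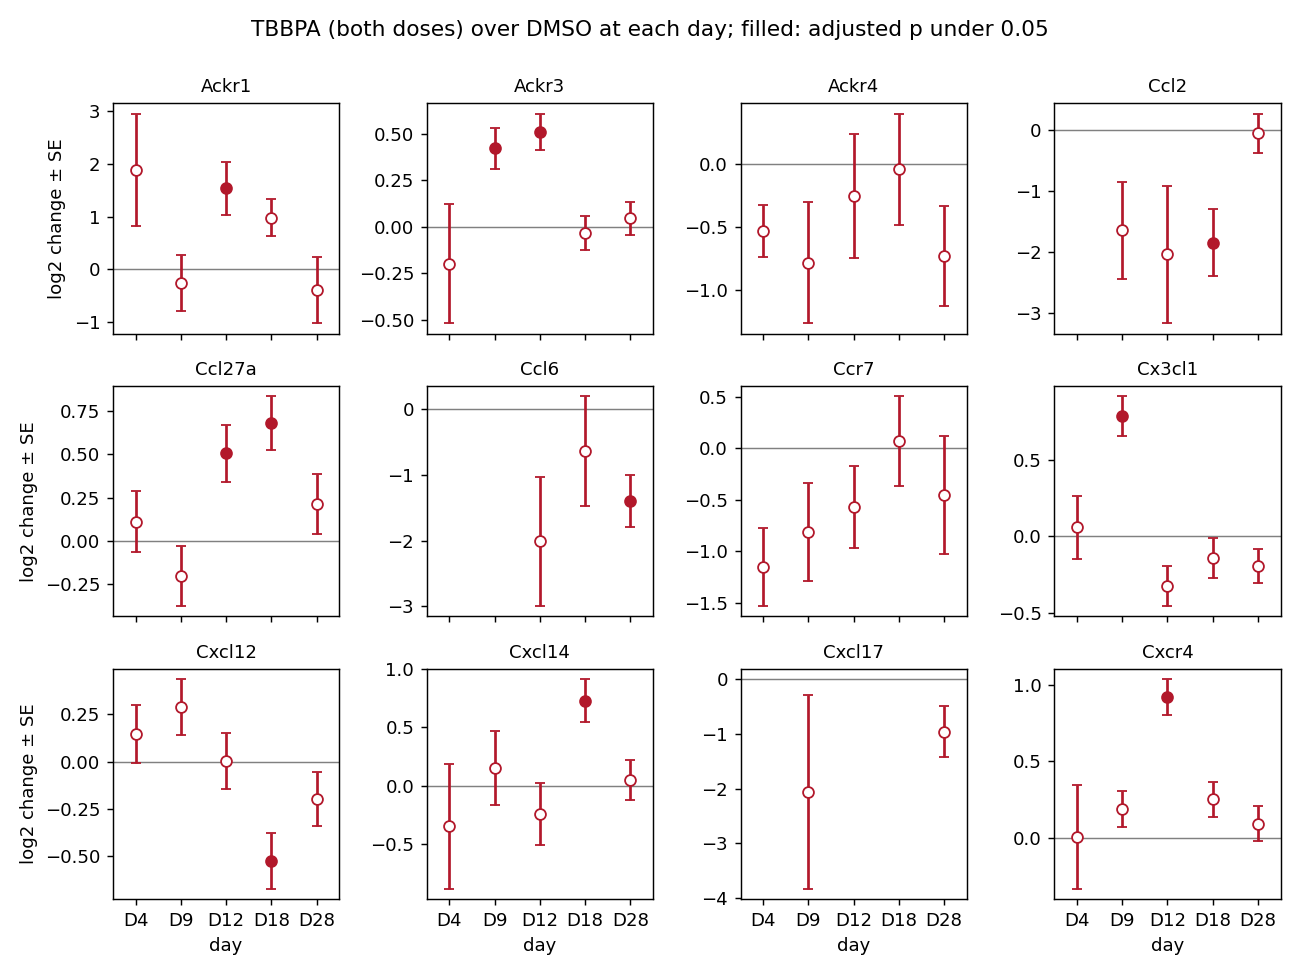
Log2 change (± SE) of TBBPA, both doses as 2 samples, over DMSO at each day for the 12 genes that passed in a TBBPA comparison; filled points have an adjusted p under 0.05, and days on which a group had no count, or both had 3 counts or fewer, are left out. Vertical scales differ between panels. Cxcr4 stands out at D12 (0.92) and Cx3cl1 at D9 (0.79).

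The receptors of Cxcl12 gave the smallest adjusted p among these calls, both at D12. Cxcr4 was 46.7 and 44.1 CPM with 10 and 100 nM TBBPA at D12, against 23.4 and 24.7 CPM with DMSO. Both doses lay well above both controls, a change of 0.92 ± 0.12 (adjusted p = 8.82e-06). Its TBBPA levels at the other days were 1.38 and 1.21 at D4, 32.2 and 26.7 at D9, 40.7 and 36 at D18 and 38.3 and 33.1 at D28 CPM, with changes between 0.00 and 0.25 that did not pass, though both doses again lay above both controls at D18. Its change differed between the days (adjusted p = 0.00885), and its mean over days and doses was 0.35 ± 0.088 (adjusted p = 0.00979), which without D12 was 0.17 (adjusted p = 0.0575).

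Ackr3 was 37.9 and 35.5 CPM with TBBPA at D12, against 24.9 and 26.7 CPM with DMSO. Here too both doses lay above both controls (0.51 ± 0.098, adjusted p = 0.000702). At D9 it was 21.1 and 17 CPM with TBBPA, against 15.3 and 13.1 CPM with DMSO (0.42 ± 0.11, adjusted p = 0.0459), a call lost without DMSO library 1 (0.0983), DMSO library 2 (0.515) or the 10 nM library (0.442, each an adjusted p). At D4, D18 and D28 its TBBPA levels, 0.84 and 1.15 at D4, 50.7 and 46.1 at D18 and 65.2 and 70.5 at D28 CPM, overlapped those of DMSO, and its change differed between the days (adjusted p = 0.0231). The mean over days was 0.20 ± 0.07 (adjusted p = 0.0483), and 0.10 (adjusted p = 0.388) without D12; this call held in 11 of 31 alternatives.

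Their ligand Cxcl12 did not pass at D12. There it was 70.9 and 65 CPM with TBBPA, against 67 and 68.4 CPM with DMSO, and these values overlap. At D18 it was 73.1 and 48 CPM with 10 and 100 nM TBBPA, against 83.8 and 90.4 CPM with DMSO. Both doses were lower, the higher dose by more, and the change was -0.52 ± 0.15 (adjusted p = 0.0325). The call was lost without either DMSO library (adjusted p = 0.103 without library 1 and 0.202 without library 2), and without the 100 nM library the change was -0.25 (adjusted p = 0.258). At the other days its TBBPA levels were 65.8 and 61.2 at D4, 89.7 and 83.1 at D9 and 103 and 105 at D28 CPM: above both DMSO libraries at D4 and D9, below both at D28, and not past the threshold.

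Cell type markers moved at the same days. With TBBPA 11.9% of all genes rose and 9.19% fell at D12, and 5.96% rose and 4.56% fell at D18. The list counts were not tested against these shares. Neuron markers summed to 724 and 779 CPM with TBBPA at D12, against 375 and 394 CPM with DMSO, and 8 of 10 rose, among them Elavl3, Map2 and Tubb3. Mesenchyme markers, which include the collagens Col1a1 and Col3a1, summed to 4090 and 2770 CPM with TBBPA at D18, against 5740 and 6050 CPM with DMSO, and 8 of 10 fell. Other lists moved at D12 as well. Of 10 ES markers 1 rose and 9 fell, of 10 epithelium markers 7 fell, of 10 endoderm markers 1 rose and 6 fell, of 10 mesenchyme markers 5 fell, of 10 endothelium markers 4 fell and of 16 macrophage markers 3 fell. ES markers summed to 1000 and 1000 CPM with TBBPA, against 1360 and 1320 CPM with DMSO, and endoderm markers to 775 and 669 CPM, against 1140 and 1140 CPM. At D18 9 of 10 neuron markers rose, and 4 of 10 epithelium and 2 of 10 endothelium markers fell. The part of these markers in the changes of Cxcr4, Ackr3 and Cxcl12 was not tested.

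Cx3cl1 was 30.8 and 35.3 CPM with 10 and 100 nM TBBPA at D9, against 19.6 and 18.7 CPM with DMSO. Both doses lay above both controls (0.79 ± 0.13, adjusted p = 0.00164). Its TBBPA levels were 5.52 and 5.46 at D4, 20.6 and 18.4 at D12, 24.1 and 18.1 at D18 and 91.7 and 74.9 at D28 CPM at the other days, below both DMSO libraries at D12 and D28. The change at D12 was -0.32 ± 0.13 (adjusted p = 0.0897) and did not pass, and the difference between days did (adjusted p = 0.00212). With each DMSO pair summed to 1 library, which leaves fewer samples, the D9 change was 0.79 (adjusted p = 0.173). Neuron markers summed to 184 and 168 CPM with TBBPA at D9, against 134 and 130 CPM with DMSO, and 3 of 10 rose (background 1.37%). Epithelium markers summed to 1670 and 1720 CPM with TBBPA, against 2130 and 2150 CPM with DMSO, and 4 of 10 fell (background 0.964%). The part of these markers was not tested. Cx3cr1, the receptor, did not pass at any day; its TBBPA levels were 0.254 and 0.451 at D4, 0.279 and 0.0628 at D9, 0.275 and 0.213 at D12, 2.12 and 1.40 at D18 and 3.38 and 1.68 at D28 CPM.

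Among the tissue ligands, Ccl27a was 11.1 and 9.87 CPM with TBBPA at D12, against 7.08 and 7.72 CPM with DMSO, and 13.6 and 17.1 CPM with TBBPA at D18, against 9.13 and 10 CPM with DMSO. Both doses lay above both controls at the 2 days, with changes of 0.50 ± 0.16 (adjusted p = 0.03) and 0.68 ± 0.15 (adjusted p = 0.00506). DESeq2 did not call the D12 change (adjusted p = 0.0848). The D12 call was lost without any 1 of its 4 libraries, and the D18 call without DMSO library 1 (0.0862) or the 100 nM library (0.108, adjusted p). The overlapping Il11ra1 changed by 0.07 at D12 and -0.09 at D18, without a call. At D4, D9 and D28 Ccl27a was 6.84 and 7.44 at D4, 7.42 and 5.51 at D9 and 6.13 and 7.87 at D28 CPM with TBBPA, and its mean over days was 0.28 ± 0.099 (adjusted p = 0.0441), a call lost without D12 (0.219) or D18 (0.317, adjusted p) and held in 12 of 31 alternatives.

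Cxcl14 was 23.3 and 15.4 CPM with 10 and 100 nM TBBPA at D18, against 12.3 and 11.1 CPM with DMSO. Both doses were higher, the lower dose by more (0.73 ± 0.18, adjusted p = 0.0119). The change was 0.40 (adjusted p = 0.282) without the 10 nM library, and the call was also lost without DMSO library 1 (0.0643) or 2 (0.137). Its TBBPA levels at the other days, 0.42 and 0.667 at D4, 2.15 and 1.85 at D9, 3.48 and 2.03 at D12 and 23.4 and 30.8 at D28 CPM, overlapped those of DMSO.

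Of the atypical receptors, Ackr1 was 0.831 and 1.56 CPM with TBBPA at D12, against 0.56 and 0.256 CPM with DMSO. The 2 doses lay above the controls at a low level (1.53 ± 0.50, adjusted p = 0.0314), and the call was lost without DMSO library 2 (0.27) or the 100 nM library (0.333, adjusted p). Its TBBPA levels at the other days were 0.12 and 0.364 at D4, 0.698 and 0.382 at D9, 3.75 and 2.57 at D18 and 0.356 and 0.255 at D28 CPM. The overlapping Cadm3 rose with TBBPA at D12 (0.90, adjusted p = 4.31e-05) and D18 (0.82, adjusted p = 3.25e-05), so the reads behind the Ackr1 call are uncertain. Ackr4 was 12.2 and 13.5 CPM with TBBPA at D4, the day of its peak, against 18.8 and 18.4 CPM with DMSO. The doses did not overlap the controls there, the change at D4 was -0.53 ± 0.20 (adjusted p = 0.336), and the mean over days, -0.50 ± 0.15 (adjusted p = 0.0227), passed. That call was lost without the 10 nM library of D4 (0.117) or without D4 altogether (0.141, adjusted p). At the later days its TBBPA levels were 0.649 and 0.219 at D9, 0.575 and 0.368 at D12, 0.653 and 0.612 at D18 and 0.766 and 0.563 at D28 CPM, and the overlapping Acad11 fell by 0.16 (adjusted p = 0.0109) over days.

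Genes at low levels in most libraries, Ccl2, Ccl6, Cxcl17 and Ccr7, made up the remaining calls. Ccl2 was 0.2 and 0.151 CPM with TBBPA at D18, against 0.602 and 0.694 CPM with DMSO, a fall of 1.84 ± 0.55 (adjusted p = 0.0375). At D28 the same gene was 1.78 and 1.79 CPM with TBBPA, against 1.75 and 1.97 CPM with DMSO, and the groups overlapped; its other TBBPA levels were 0 and 0 at D4, 0.107 and 0.0546 at D9 and 0.0519 and 0 at D12 CPM. Ccl6 was 0.815 and 0.817 CPM with TBBPA at D28, against 1.95 and 2.38 CPM with DMSO, a fall of 1.40 ± 0.40 (adjusted p = 0.0365). Before D28 it was at most 0.151 CPM in any TBBPA library, with 0.06 and 0.0607 at D4, 0.107 and 0 at D9, 0 and 0.104 at D12 and 0.1 and 0.151 at D18 CPM, and its mean over days was -1.19 ± 0.32 (adjusted p = 0.0116). Each of the 2 day calls was lost without any 1 of its 4 libraries, with adjusted p from 0.117 to 0.208 for Ccl2 and from 0.111 to 0.275 for Ccl6. The Ccl6 mean lost its call without the 10 nM (0.076), the 100 nM (0.0851) or the second DMSO library (0.0517, adjusted p) of D28.

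Cxcl17 was 3.05 and 0.919 CPM with 10 and 100 nM TBBPA at D28, against 3.50 and 4.25 CPM with DMSO. It was at 0 with TBBPA at D4, D12 and D18, and 0.0537 and 0 CPM at D9. Its mean over days was -1.30 ± 0.34 (adjusted p = 0.0129), which rests on D28 and lost its call without DMSO library 2 (0.0548), the 10 nM library (0.0736) or the 100 nM library of that day (0.148, adjusted p). DESeq2 did not call this mean of Cxcl17 either (adjusted p = 0.0806). Ccr7 was 0.84 and 0.667 CPM with TBBPA at D4, against 1.45 and 1.93 CPM with DMSO, and 0.43 and 0.327 at D9, 0.727 and 0.573 at D12, 0.701 and 0.554 at D18 and 0.356 and 0.153 at D28 CPM with TBBPA later. It lay below both DMSO libraries at D4, D9 and D12, and the mean over days was -0.64 ± 0.19 (adjusted p = 0.0215). That call was lost without D4 library 2 of DMSO (0.0523), the 10 nM library of D4 (0.0521) or its 100 nM library (0.0503, adjusted p). It was also lost without D4 (0.143), D9 (0.0598) or D12 (0.086) as a whole, and with DESeq2 (0.0501).

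Macrophage markers summed to 127 and 96.7 CPM with TBBPA at D28, against 141 and 137 CPM with DMSO. Of these markers, 1 of 16 fell there (background 3.44%), the lysozyme gene Lyz2. At D18 their sum was 54.8 and 47.2 CPM with TBBPA, against 62.1 and 58.3 CPM with DMSO. Their part in the lower levels of Ccl2 and Ccl6 was not tested. Over days 4 of the 16 fell (background 10.3%), Csf1r, Mrc1, Laptm5 and Lyz2.

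The remaining abundant genes did not pass in any TBBPA comparison. With 10 and 100 nM TBBPA, Ccl25 was 4.38 and 4.49 at D4, 7.95 and 6.49 at D9, 8.46 and 10.2 at D12, 7.66 and 10.2 at D18 and 8.30 and 12.2 at D28 CPM. Cxcl10 was 13.7 and 14.4 at D4, 0.752 and 1.04 at D9, 0.831 and 1.15 at D12, 0.751 and 0.755 at D18 and 1.22 and 0.817 at D28 CPM, with the D4 peak present at both doses. Cxcl16 was 10.4 and 9.83 at D4, 2.69 and 2.96 at D9, 2.70 and 2.76 at D12, 4.05 and 3.42 at D18 and 11.1 and 9.91 at D28 CPM, and Cxcr2 was 19.1 and 19.3 at D4, 6.14 and 10.2 at D9, 9.24 and 10.7 at D12, 4.37 and 5.84 at D18 and 5.99 and 8.03 at D28 CPM. A p that misses the threshold does not show that these genes were equal with and without TBBPA. Ccl3, Ccl11 and the receptor Ccr1, which were tested with TBBPA only, passed nowhere; at D28 they were 0.611 and 0.255, 0.611 and 0.306 and 0.662 and 0.255 CPM with TBBPA, against 0.65 and 0.455, 0.55 and 0.404 and 0.55 and 0.455 CPM with DMSO.

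Between the 2 doses no gene of the family passed. The mean of 100 nM over days against that of 10 nM gave 0 of 29 calls in edgeR (background 0% of 16242 genes) and 0 in DESeq2, and 3 genes, Ccr1, Cxcl17 and Cxcr2, had an unadjusted p under 0.05 in edgeR. Each dose had 1 library a day, so a difference confined to 1 day, such as that of Cxcl12 at D18 or Cxcl17 at D28, could not be tested.

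Genes that work with the family were counted from lists. Of 25 tested genes of receptor signalling, which cover G protein subunits, arrestins, receptor kinases and regulators of G protein signalling, 6 rose and 1 fell with TBBPA at D12, where 11.9% of all genes rose and 9.19% fell; none of the list counts here was tested against these shares. The one that fell was the kinase Ptk2b (-0.86, adjusted p = 2.58e-05), and the largest rise was that of Rgs2, a regulator of G protein signalling (0.76, adjusted p = 6.53e-05). Of 11 tested chemokine-like genes and accessory genes outside the naming rule, 1 rose and 3 fell at D12: Mif, a cytokine that also binds Cxcr4, rose by 0.22 (adjusted p = 0.0266), and the chemerin gene Rarres2 fell by 1.11 (adjusted p = 0.000303). Dpp4, the protease that inactivates Cxcl12 and other chemokines, fell by 0.67 (adjusted p = 0.000418), and the third to fall was the chemerin receptor Cmklr1. Of 18 NF-kB and cytokine genes 3 fell at D12, with Icam1 at -0.71 (adjusted p = 0.000285), and of 12 interferon response genes 3 fell, with Rsad2 at -1.18 (adjusted p = 0.000937).

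Many of the genes sit in clusters. On chromosome 11, which carries 13 of the 54, Ccl2, Ccl7, Ccl11, Ccl12, Ccl8 and Ccl1 follow each other in RefSeq, and Ccl2 fell with TBBPA at D18 while its neighbour Ccl7 was 0.35 and 0 CPM with TBBPA, against 0.401 and 0.149 CPM with DMSO. In the second run of that chromosome, Ccl5, Ccl9, Ccl6, Ccl3 and Ccl4, only Ccl6 passed at D28, and Ccl4 had too few counts for a test. Its neighbour Ccl9 also lay below both controls there without passing, at 1.73 and 1.13 CPM with TBBPA, against 2.42 and 2.69 CPM with DMSO. Cx3cl1 lies on chromosome 8 between Ccl22, also not tested, and Ccl17. At D9, where Cx3cl1 rose with TBBPA, Ccl17 was 0.537 and 0.6 CPM with TBBPA, against 0.323 and 0.643 CPM with DMSO, and did not pass.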

How the data were processed

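Each of the 22 deposited tables lists genes with an expected count and an FPKM value. Expected counts, per the file headers, are estimated reads of a gene made by the authors, and 64.9 to 66.7% were whole. Deposited FPKM values, also per the file headers, are scaled to gene length and depth. HISAT, Bowtie2 and build GRCm38.p5 are named in the submitters' processing notes, and of the counting tool the sources used here say nothing. Genes absent from a table were set to 0.

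After rounding, counts went into edgeR 4.0.16 with R 4.3.3 (TMM scaling, filterByExpr with a minimum count of 10 and a minimum total of 15, robust quasi-likelihood F tests, Benjamini-Hochberg adjustment over all genes). SE was taken as the absolute log2 change over the root of F. Stages were compared in 1 fit of 12 control libraries (6 residual degrees of freedom), TBBPA with DMSO in 1 fit of 22 libraries in 11 groups (11), and doses in 20 embryoid body libraries with day as a factor (13). The fits were tested on simulated counts. Alternatives were DESeq2 1.42.0, other scalings, no or a stricter filter (1 CPM in 2 libraries and 50 counts), a replicate block, summed DMSO pairs and leaving out each library or day; where 1 library of a group remains, it is assumed to vary like the others. Genes named are those that passed with TBBPA and the 12 of highest mean FPKM, with every library's value; others are named by their largest step. Results of 1 gene counted among the members are not reported here. Members and lists were chosen with earlier results of these data known. Figures used matplotlib 3.10.9.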

Additional observations from a re-analysis of the deposited data

Results flagged for a closer look

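In 3 genes the TBBPA effect was not the same at all 5 days, by the test of that difference itself in edgeR with adjustment over all genes. For Cx3cl1 the adjusted p was 0.00212: TBBPA was 0.79 above DMSO on the log2 scale at D9 and -0.32 at D12, and both libraries lay above DMSO at D9 and below it at D12. Without D9 the adjusted p of the difference was 0.669. For Cxcr4 it was 0.00885, with a change of 0.92 at D12 and 0.09 at D28, and without D12 it was 0.922. For Ackr3 it was 0.0231, with changes of 0.42 at D9, 0.51 at D12 and -0.04 at D18; it was 0.236 without D12, 0.0854 without D18 and 0.0736 without D28. With each DMSO pair summed to 1 library the adjusted p was 0.234 for Cx3cl1, 0.426 for Cxcr4 and 0.519 for Ackr3.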

How the results depend on the processing

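Each change of a single gene that passed was set against each of its alternatives, so 1 change is counted many times. Of these pairs of change and alternative, 722 kept direction and call, 173 kept direction without the call and 0 reversed. DESeq2 gave no adjusted p in 4 cases. Cxcr4 and Ackr3 at D12 kept their call in 10 of 10 alternatives, and Cx3cl1 at D9 in 9 of 10. The cause of the moves below was not tested, beyond the fewer samples or genes that an alternative leaves. DESeq2 called 6 genes at D18 against D12 (edgeR 10), 10 at D28 against D18 (19), 2 at D12 (4) and 0 at D28 (1) with TBBPA, and 3 over both doses (7). With each DMSO pair summed, TBBPA calls were 0 at D9 (2), 2 at D12 (4), 0 at D18 (4), 0 at D28 (1), 0 for the difference between days (3) and 1 over both doses (7). Without a filter on low counts they were 2 at D18 and 0 at D28. Without day 12 they were 1 for the difference between days and 3 over both doses. Leaving out 1 library in turn gave 10 to 13 calls at D4 against ES, 10 to 12 at D9, 3 to 3 at D12, 5 to 7 at D18 and 14 to 17 at D28 against D18. With TBBPA it gave 0 to 0 at D4, 1 to 2 at D9, 2 to 3 at D12, 0 to 2 at D18, 0 to 1 at D28, 4 to 7 over both doses and 0 to 0 between doses. The fit with the replicate number as a block called 12, 13, 3, 9 and 18 genes at the 5 control steps, and lost Cxcl12 at D9 (adjusted p = 0.057), Ccl27a at D18 (0.0553) and Cxcl15 at D28 (0.0557). Deviations of libraries with the same number correlated by -0.0234 to 0.123, the highest for D4 with D18. No strong shared deviation was thus seen, but whether the numbers pair the libraries is not known. The TBBPA libraries carry no replicate number. Genes under about 1 CPM rest on few counts, which limits their calls.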
